A study of Mus musculus with 20 samples.

Results

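The mitochondrial ribosome makes the few proteins that mitochondrial DNA encodes, all of them subunits of the respiratory chain and of ATP synthase. Its RNA parts come from mitochondrial DNA, while its proteins are encoded in the nucleus, made in the cytosol and imported. Part of these proteins descend from bacterial ribosomal proteins, and the others occur in the mitochondrial ribosome alone. In the lung, alveolar epithelial cells depend on mitochondria for the energy of surfactant production and ion transport.

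The genes described here were all those with a symbol of Mrpl or Mrps and a number, for the large and the small subunit. The symbol gave 78 genes read by 132 rows of the array table. Rows with values on fewer than 4 arrays of any time were dropped, which kept 130 rows and all 78 genes, among 17051 genes from 28799 rows in all. One further row named both Mrps25 and its neighbour Nr2c2 and was left out. By known structure, 51 of the 78 genes encode large subunit proteins (including Mrps18a and Mrps30, in spite of their names), 26 encode small subunit proteins, and Mrps36 encodes a protein since known as a component of the 2-oxoglutarate dehydrogenase complex. All 78 protein-coding Mrpl and Mrps genes of the RefSeq gene table were among them.

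The cells were MLE12, a mouse lung epithelial line that carries the SV40 large T antigen and has features of alveolar type II cells. They were transfected, by Lipofectamine2000, with the NICD1-pIRES-DsRed2 plasmid, which expresses NICD1, the intracellular domain of the receptor Notch1, or with its empty vector, and were harvested after 12, 24 or 48 h. Each of 20 Agilent arrays set NICD1 RNA against empty vector RNA of 1 time point, with 6 independent replicates at 12 h, 7 at 24 h and 7 at 48 h and with dyes swapped between replicates. The transfection was transient, and the share of cells that took up either plasmid was not given in the sources used here. Values are log2 ratios of NICD1 over empty vector, so a value below 0 means a lower level in NICD1 cells; a ratio holds no level, so neither the abundance of a gene nor the identity of the cells could be read from it. Listed alveolar type II markers were called higher at 48 h in 2 of the 6 tested genes and lower in 0, alveolar type I markers higher in 1 and lower in 1 of 5, fibroblast markers higher in 1 of 4, and macrophage markers in 0 of 3 in either direction. Of all genes, 14% were called higher and 13.8% lower at 48 h in the fit over all 20 arrays.

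Of the 7 arrays of 48 h, 3 stood apart. The SD of the log2 ratio over all genes was 0.739, 0.705 and 0.813 on 48 h replicates 5, 6 and 7, against 0.494 to 0.631 on 48 h replicates 1 to 4. The main results at 48 h are therefore given with and without replicates 5 to 7, but the marker counts above are not. The columns of 12 h replicate 3 and 48 h replicate 3 were multiplied by -1, since their deposited ratios ran the other way. The labels do not state this, so the direction on these 2 arrays rests on the values.

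Promoter sequence is shown for 4 members, because the genes of this ribosome are known targets of the transcription factors NRF1 and GABPA and because RBPJ is the DNA-binding partner of NICD1. Mrpl32 and Mrpl58 were lower at 48 h with and without replicates 5 to 7, Mrpl12 encodes the protein of the stalk that recruits translation factors, and Mrps12 encodes the decoding-site protein and had a fitted ratio above 0. Each line gives the 180 bases before the annotated start, 5′ to 3′ on the strand of the gene, from RefSeq (GRCm38.p6). Capitals mark matches, on either strand, to the letters searched: GCGCA and then, 1 base on, GCGC for NRF1, CCGGAAG for GABPA and other ETS factors, GTGGGAA for RBPJ, GGGCGG for Sp1 and CACGTG for the E box.
Mrpl32 (chr13:14613038-14613217, minus strand): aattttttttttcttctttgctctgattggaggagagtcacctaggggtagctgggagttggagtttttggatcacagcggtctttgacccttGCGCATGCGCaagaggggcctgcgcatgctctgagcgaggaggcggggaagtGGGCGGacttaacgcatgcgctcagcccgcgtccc
Mrpl12 (chr11:120484457-120484636, plus strand): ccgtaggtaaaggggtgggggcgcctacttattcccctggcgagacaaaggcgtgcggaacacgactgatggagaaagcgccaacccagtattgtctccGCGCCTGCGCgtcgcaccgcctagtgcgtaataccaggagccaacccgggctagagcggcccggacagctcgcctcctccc
Mrpl58 (chr11:115403572-115403751, plus strand): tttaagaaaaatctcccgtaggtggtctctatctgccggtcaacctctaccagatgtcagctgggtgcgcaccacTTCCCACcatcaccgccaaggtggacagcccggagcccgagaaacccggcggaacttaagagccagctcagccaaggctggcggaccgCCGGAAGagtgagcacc
Mrps12 (chr7:28741822-28742001, minus strand): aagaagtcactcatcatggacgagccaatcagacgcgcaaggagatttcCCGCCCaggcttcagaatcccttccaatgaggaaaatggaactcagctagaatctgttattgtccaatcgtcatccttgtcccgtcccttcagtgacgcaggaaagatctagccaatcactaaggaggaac

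In these windows Mrpl32 and Mrpl12 held the NRF1 letters, Mrpl58 held the ETS and the RBPJ letters, and Mrpl32 and Mrps12 held the Sp1 letters. Over the 250 bases before the start, 69 of the 78 members matched an entry of the promoter table. All genes here are the 27025 genes of that table, not the 17051 tested on the arrays. A gene counted if any of its entries held the letters. The NRF1 letters stood in 10 of the 69 members (14.5%, against 4.2% of all genes) and the ETS letters in 18 (26.1%, against 7.8%). Matches to different letters could share bases, and each was counted. Sp1 letters stood in 33 members (47.8%, against 35.4%), E box letters in 5 (7.2%, against 6.9%) and RBPJ letters in 5 (7.2%, against 6.2%). The windows of the members also held more G and C, with a median of 58.4% against 52.4% over all genes, which raises the count of GC-rich letters. Of the members called lower at 48 h, 46 matched the table: 4 held the NRF1 letters, 11 the ETS letters and 5 the RBPJ letters. Of the 23 other matched members, 6 held the NRF1 letters, 7 the ETS letters and 0 the RBPJ letters. The motif shares describe these windows; no binding was measured.

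At 12 h and 24 h no member passed. At 12 h the fitted log2 ratios of the 78 genes lay between -0.27 (Mrpl30) and 0.28 (Mrpl23), with a median of 0.03, against 0.00 over all genes. At 24 h they lay between -0.32 (Mrpl41) and 0.20 (Mrpl42), with a median of -0.03, against 0.01 over all genes. In limma's moderated test with Benjamini-Hochberg adjustment over all 17051 genes, 0 members were called at 12 h (0.282% of all genes were) and 0 at 24 h (1.67% of all genes were). At an unadjusted p under 0.05 the counts were 1 and 0, against 914 and 1424 of all 17051 genes. The smallest adjusted p of a member was 0.823 at 12 h and 0.761 at 24 h. The median SE of a member was 0.12 at 12 h and 0.11 at 24 h, so differences of that size could not be resolved. The adjustment was also stricter at these times, since far fewer genes were called than at 48 h (27.8% of all genes). Ratios as small as some called at 48 h, such as -0.29, could therefore have gone uncalled at 12 h or 24 h. The difference between 24 h and 12 h was called for 0 members as well (0.897% of all genes were called). At an unadjusted p under 0.05 there were 0 members, against 970 of all genes.

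At 48 h most of the family was lower in NICD1 cells. In the fit over all 20 arrays 52 of the 78 genes were lower and 0 higher, where 13.8% of all genes were called lower and 14% higher (27.8% in either direction). The median log2 ratio of the members was -0.42, with quartiles of -0.59 and -0.20, against -0.01 over all genes, and 73 of the 78 were below 0. The 52 lower genes lay between -1.06 and -0.29, with a median of -0.53, and the 26 that did not pass lay between -0.43 and 0.32, with a median of -0.09. Without 48 h replicates 5, 6 and 7, 7 of the 78 were lower (2.18% of all genes were) and 0 higher (1.51%; 3.69% in either direction), the median was -0.19 and again 73 were below 0. These 7 were Mrpl1, Mrpl16, Mrpl32, Mrpl46, Mrpl58, Mrps10 and Mrps14, all among the 52. All 7 were below 0 on each of replicates 1 to 4, but replicate 4 was the lowest of that set in each of them. No fit left out replicate 4 together with replicates 5 to 7, so how far these calls rest on replicate 4 was not tested. With the 48 h arrays fitted alone, so that only their own spread counted, 0 members were called (1.37% of all genes were). The median stayed at -0.42, and 51 members had an unadjusted p under 0.05 in limma's test. In the fit over all 20 arrays 58 members had such a p at 48 h, as did 6428 of all 17051 genes. For the 48 h arrays alone, and for fits without replicates 5 to 7, the share of all genes at that p was not counted. In cell populations such as these, fewer cells of a kind and less RNA per cell cannot be told apart.

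**Figure D1:**
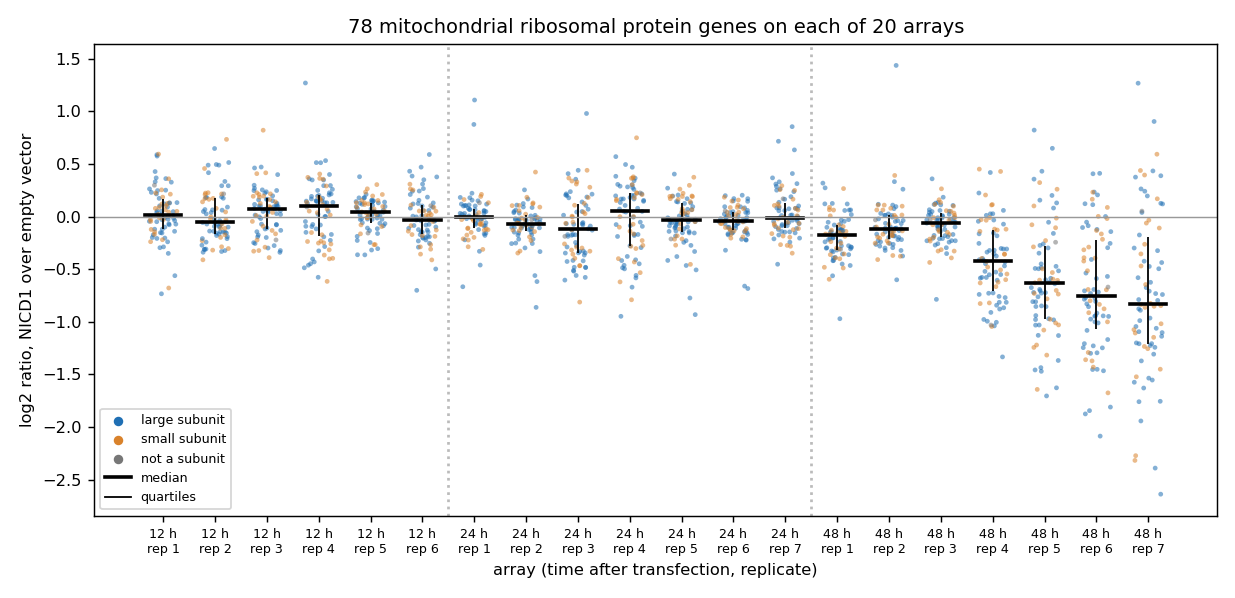
Log2 ratio of NICD1 over empty vector of each of the 78 genes (points, coloured by subunit) on each of the 20 arrays, with the median and quartiles as bars. The medians at 12 h and 24 h lie between -0.12 and 0.10, and those of 48 h replicates 5, 6 and 7 at -0.63, -0.75 and -0.83, below those of 48 h replicates 1 to 4 at -0.18, -0.11, -0.06 and -0.42.

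Array by array, the median log2 ratio of the 78 genes was -0.63, -0.75 and -0.83 on 48 h replicates 5, 6 and 7, and -0.18, -0.11, -0.06 and -0.42 on 48 h replicates 1, 2, 3 and 4. All 7 were below 0, replicate 4 was the lowest of its set, and the sets did not overlap. On the 7 arrays of 24 h the medians lay between -0.12 and 0.05, and on the 6 of 12 h between -0.05 and 0.10. Of these 13 earlier arrays, 24 h replicates 2 and 3, at -0.07 and -0.12, reached into the range of the 48 h arrays. The family also spread out: the SD over the 78 genes was 0.54, 0.58 and 0.78 on replicates 5, 6 and 7, and 0.17 to 0.38 on replicates 1 to 4. The median of all genes stayed between -0.029 and 0.014 on the 7 arrays of 48 h. On replicates 5, 6 and 7 the median of the 72 cytosolic ribosomal protein genes was -0.51, 0.05 and -0.43. That of 75 respiratory chain and ATP synthase genes was -0.57, -0.40 and -0.44. Replicate 6 had a low mitochondrial ribosome median beside a cytosolic one near 0, but its dyes were swapped relative to replicates 5 and 7. At each time, every array labelled like replicate 6 had a higher cytosolic median than every array labelled the other way. At 48 h it was 0.1 and -0.0 on replicates 2 and 4, labelled like replicate 6. It was -0.24 and -0.14 on replicates 1 and 3, labelled the other way. How much of the replicate 6 value came from the dye was not tested.

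Gene by gene, 58 of the 78 members were below 0 on all of replicates 5, 6 and 7 (31.3% of all genes with 7 values were), 33 were below 0 on all of replicates 1 to 4 (12.3% of all genes) and 28 on all 7 arrays (7.5% of all genes). For 40 members every value of replicates 5 to 7 lay below every value of replicates 1 to 4 (14.8% of all genes). The 7 members above 0 on all of replicates 5 to 7 (29.7% of all genes were) were Mrpl34, Mrpl35, Mrpl36, Mrpl43, Mrpl51, Mrps16 and Mrps28. Their means over replicates 1 to 4 were all below 0, but those of Mrpl34 (-0.01), Mrpl51 (-0.04), Mrpl43 (-0.05) and Mrpl35 (-0.09) lay close to 0. The means of Mrps16, Mrpl36 and Mrps28 were -0.33, -0.27 and -0.21. The Mrpl34 mean was below 0 only through replicate 4 (-0.53).

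**Figure D2:**
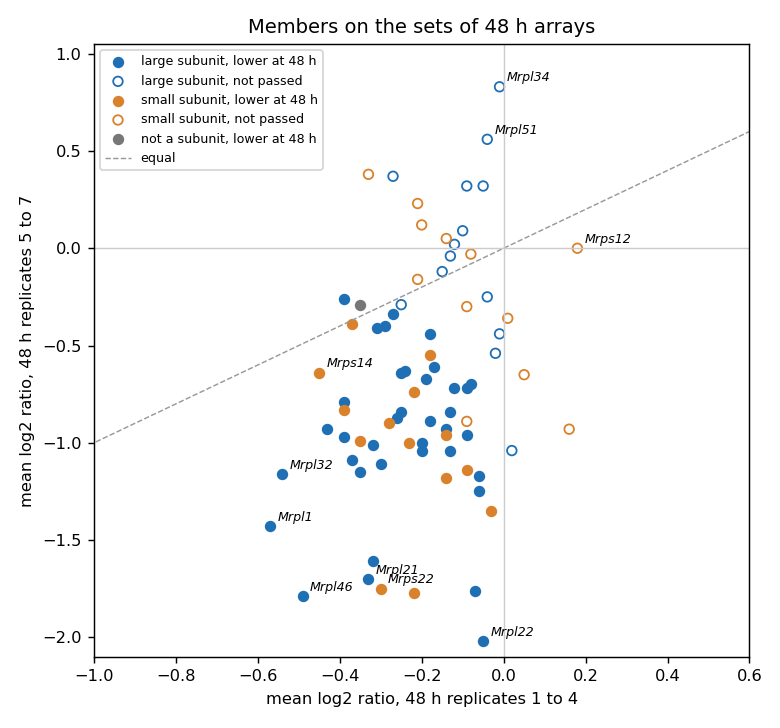
Mean log2 ratio of each of the 78 genes over 48 h replicates 5 to 7 (vertical) against its mean over replicates 1 to 4 (horizontal), with genes lower at 48 h filled and the line of equal values dashed. For 61 of the 78 genes the mean over replicates 5 to 7 is the lower one; Mrpl34 and Mrpl51 lie highest, and Mrpl22 lowest beside a mean near 0 on replicates 1 to 4.

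Both subunits took part. In the large subunit 37 of 51 genes were lower at 48 h (median -0.43), and in the small subunit 14 of 26 (median -0.40). For these and the classes below, 13.8% of all genes were called lower in the same fit. Among genes with a bacterial homologue 30 of 46 were lower (median -0.41), and among those found in the mitochondrial ribosome alone 19 of 29 (median -0.47). The small subunit proteins with a bacterial homologue had 7 of 16 lower and a median of -0.31, and those found in the mitochondrial ribosome alone 6 of 9 and a median of -0.55. Mrps18a, Mrps18b and Mrps36 were put in neither class. Differences between these classes were not tested. Without replicates 5 to 7 the large subunit kept 5 lower genes (median -0.18) and the small subunit 2 (median -0.19). That was 9.8% and 7.69% of them, against 2.18% of all genes.

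Among proteins near the central protuberance of the large subunit, Mrpl46 had the lowest fitted ratio of the family. Its log2 ratio was -1.70, -2.09 and -1.57 on 48 h replicates 5, 6 and 7, and -0.45, -0.30, -0.23 and -0.98 on replicates 1, 2, 3 and 4. All 7 arrays were below 0 and the sets did not overlap, whereas at 24 h the lowest, median and highest values were -0.48, -0.03 and 0.26, and at 12 h -0.20, 0.01 and 0.31. The fit gave -1.06 ± 0.18 at 48 h (SE; adjusted p = 0.000445 by limma, 7 arrays at that time), a level 2.08-fold lower. Without replicates 5 to 7 it gave -0.49 ± 0.12 (adjusted p = 0.0355). These SEs, like those of the genes below, rest on a variance shared with the 12 h and 24 h arrays, not on the 48 h spread alone. With the 48 h arrays fitted alone, Mrpl46 was at -1.05 ± 0.26 (adjusted p = 0.0847 by limma), and no member passed. Mrpl48, of the same region, stood at -1.37, -1.84 and -1.63 on replicates 5 to 7, and at -0.39, 0.03, -0.18 and -0.73 on replicates 1 to 4. Its fall of -0.86 ± 0.17 (adjusted p = 0.00153 by limma) became -0.32 ± 0.12 (adjusted p = 0.142) without replicates 5 to 7. Mrpl58 encodes a peptidyl-tRNA hydrolase that frees stalled ribosomes and sits in the ribosome as a subunit. The Mrpl58 ratio, whose promoter is printed above, was -0.64, -0.95 and -0.79 on replicates 5 to 7, and -0.15, -0.37, -0.03 and -1.0 on replicates 1 to 4. Here replicate 4 was the lowest of the 7 arrays, and the call held without replicates 5 to 7, at -0.39 ± 0.09 (adjusted p = 0.0266 by limma) against -0.59 ± 0.09 (adjusted p = 0.000213) over all arrays.

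At the mobile stalks of the large subunit, Mrpl1 was low on all 7 arrays of 48 h. Mrpl1 is the counterpart of bacterial L1, which in bacteria guides spent tRNAs out of the ribosome. It stood at -1.47, -1.45 and -1.37 on replicates 5, 6 and 7, and at -0.56, -0.60, -0.21 and -0.91 on replicates 1, 2, 3 and 4. Every 48 h array was below the lowest value of 24 h (-0.17) and of 12 h (-0.09). The fitted ratio was -0.94 ± 0.12 (adjusted p = 3.5e-05 by limma), 1.92-fold lower, and -0.57 ± 0.09 (adjusted p = 0.0014) without replicates 5 to 7; fitted at 48 h alone it had an adjusted p of 0.0559, the smallest of the family. Mrpl12 and Mrpl11 form and anchor the stalk on which translation factors land. Mrpl12, with the NRF1 letters shown above, stood at -0.67, -1.21 and -0.80 on replicates 5 to 7, and at -0.04, -0.17, 0.07 and -0.58 on replicates 1 to 4. Its fall of -0.50 ± 0.12 (adjusted p = 0.00351 by limma) and that of Mrpl11 at -0.37 ± 0.10 (adjusted p = 0.00779) both lost their calls without replicates 5 to 7, at -0.18 ± 0.10 (adjusted p = 0.327) and -0.17 ± 0.10 (adjusted p = 0.383).

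Among proteins along the path of the new peptide, Mrpl22, Mrpl24 and Mrpl3 were lower and Mrpl45 did not pass. Mrpl22, a wall protein of the exit tunnel, had the lowest single value of all members, with -1.63, -1.81 and -2.64 on replicates 5, 6 and 7, and -0.39, -0.20, -0.05 and 0.42 on replicates 1, 2, 3 and 4. Its fitted ratio was -0.86 ± 0.24 (adjusted p = 0.0126 by limma), but it was -0.05 ± 0.13 (adjusted p = 0.861) without those 3 arrays, and the call was already lost without replicate 6 (-0.63) or without replicate 7 (-0.61). Mrpl24, at the tunnel exit, was lower at -0.71 ± 0.13 (adjusted p = 0.000606 by limma), with values from -1.46 to -0.96 on replicates 5 to 7 and from -0.81 to -0.09 on replicates 1 to 4. Mrpl45 tethers the ribosome to the inner membrane. Its values were 0.13, -0.05 and 0.20 on replicates 5 to 7, and 0.06, -0.13, 0.06 and -0.40 on replicates 1 to 4, and the fitted ratio of -0.04 ± 0.06 (adjusted p = 0.686 by limma) did not pass. Mrpl3, a protein near the peptidyl transferase centre, was lower at -0.53 ± 0.14 (adjusted p = 0.00829), a call lost without replicate 6 (-0.38).

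Of 5 further large subunit proteins, Mrpl21, Mrpl32, Mrpl13 and Mrps30 were lower and Mrpl44 did not pass. Mrpl21, an RNA-binding protein of bacterial descent, stood at -1.46, -1.88 and -1.76 on replicates 5, 6 and 7, and at -0.11, -0.22, -0.12 and -0.87 on replicates 1, 2, 3 and 4, which gave -0.93 ± 0.18 (adjusted p = 0.00113 by limma) and, without replicates 5 to 7, -0.33 ± 0.10 (adjusted p = 0.0753). Mrpl32, which in yeast and mouse is cut to its mature form by the m-AAA protease before it joins the ribosome, stood at -1.13, -1.29 and -1.06 on replicates 5 to 7, and at -0.33, -0.24, -0.27 and -1.33 on replicates 1 to 4. Replicate 4 had the lowest Mrpl32 value of all 20 arrays. The fitted Mrpl32 ratio was -0.82 ± 0.12 (adjusted p = 0.000182 by limma) over all arrays and -0.54 ± 0.14 (adjusted p = 0.0378) without replicates 5 to 7. Mrpl13, the counterpart of a bacterial protein that binds early in assembly, was lower at -0.68 ± 0.12 (adjusted p = 0.000565). Mrpl44, which has a ribonuclease III-like fold, did not pass at -0.17 ± 0.14 (adjusted p = 0.386), with values from -1.23 to 0.20 on replicates 5 to 7 and from -0.33 to 0.33 on replicates 1 to 4. Mrps30, a large subunit protein once named as programmed cell death protein, was lower at -0.50 ± 0.10 (adjusted p = 0.00168) and below 0 on all 7 arrays. Without replicates 5 to 7 Mrpl13 was at -0.37, Mrps30 at -0.25, Mrpl24 at -0.35 and Mrpl3 at -0.13, and none of these 4 passed.

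**Figure D3:**
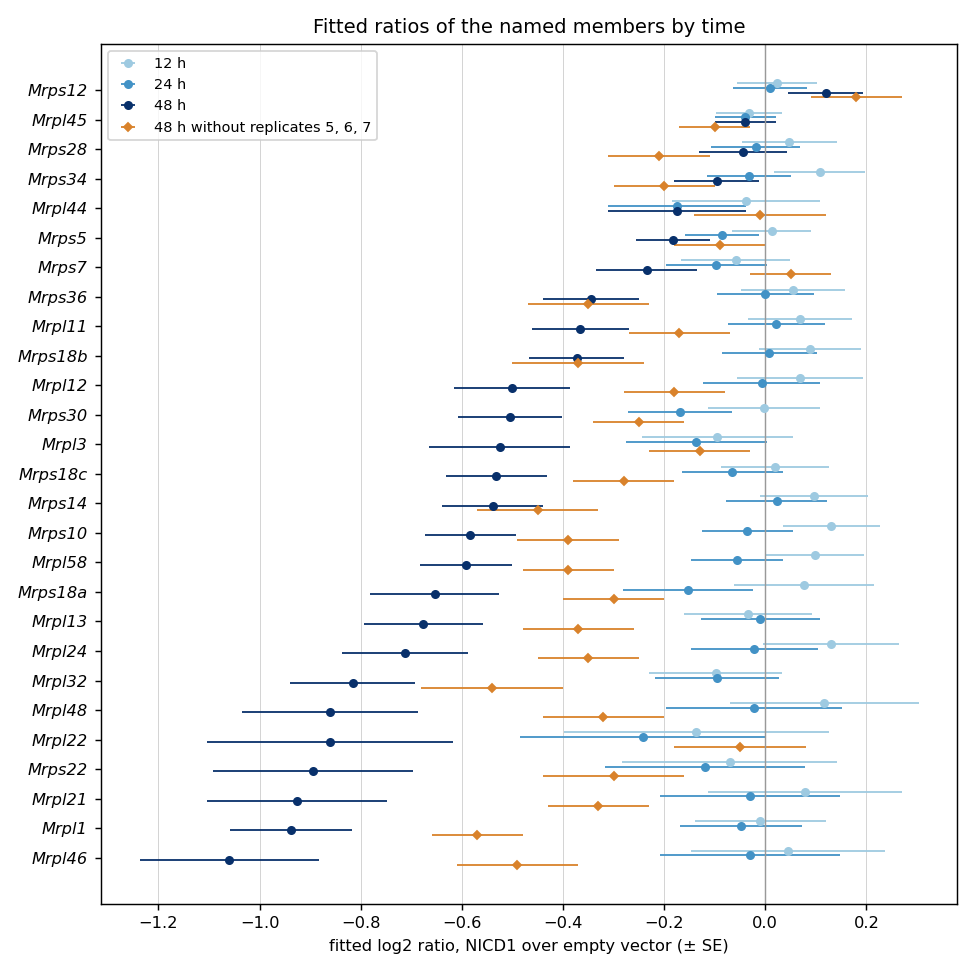
Fitted log2 ratio ± SE of the 27 named members (rows) at 12 h, 24 h and 48 h and at 48 h without replicates 5, 6 and 7. The 12 h and 24 h points lie near 0 for all of them, while at 48 h Mrpl46 lies lowest at -1.06 and Mrps12 highest at 0.12, and leaving out the 3 arrays moves Mrpl22 to -0.05 but Mrps14 only to -0.45.

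In the small subunit, Mrps22 had the lowest fitted ratio. Mrps22 occurs in the mitochondrial ribosome alone, and stood at -1.32, -1.68 and -2.27 on replicates 5, 6 and 7, and at -0.60, -0.25, -0.33 and -0.03 on replicates 1, 2, 3 and 4. The sets did not overlap. Replicate 4 was the highest 48 h array in these values, but with the dye effect taken off replicate 3 (-0.12) lay above replicate 4 (-0.24). The fitted ratio was -0.89 ± 0.20 (adjusted p = 0.00273 by limma) and, without replicates 5 to 7, -0.30 ± 0.14 (adjusted p = 0.235). Mrps10 and Mrps14, proteins of the head of the small subunit with bacterial counterparts, kept their calls without those arrays. Mrps10 stood at -0.78, -0.88 and -0.82 on replicates 5 to 7, and at -0.40, -0.15, -0.20 and -0.83 on replicates 1 to 4, with fitted ratios of -0.58 ± 0.09 (adjusted p = 0.000208 by limma) over all arrays and -0.39 ± 0.10 (adjusted p = 0.033) without the 3. Mrps14 stood at -0.70, -0.39 and -0.84, and at -0.39, -0.19, -0.17 and -1.04, so its sets overlapped and replicate 4 was its lowest array. Mrps14 was lower at -0.54 ± 0.10 (adjusted p = 0.000802 by limma), and at -0.45 ± 0.12 (adjusted p = 0.0496) without replicates 5 to 7.

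Of the small subunit proteins named for their role, 5 did not pass. Mrps12, the counterpart of the bacterial protein that governs decoding accuracy, stood at -0.10, 0.17 and -0.06 on replicates 5, 6 and 7, and at 0.06, 0.10, 0.12 and 0.45 on replicates 1, 2, 3 and 4. It was above 0 on 5 of the 7 arrays, and the fitted ratio of 0.12 ± 0.07 (adjusted p = 0.255 by limma) was the only one above 0 in the small subunit. Mrps5, at the entry of the mRNA channel, was at -0.18 ± 0.07 (adjusted p = 0.0703) and below 0 on all 7 arrays, and it passed without replicate 4 (-0.22). Mrps7, which in bacteria starts the assembly of the head, was at -0.23 ± 0.10 (adjusted p = 0.0878), with -0.60, -0.51 and -0.85 on replicates 5 to 7 and -0.14, 0.11, 0.01 and 0.21 on replicates 1 to 4; it passed without replicate 3 (-0.30). The other two also fell short: Mrps28, the counterpart of bacterial S1, was at -0.04 ± 0.09 (adjusted p = 0.767) and Mrps34, a protein of the mitochondrial ribosome alone, at -0.10 ± 0.08 (adjusted p = 0.444).

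The 3 paralogues of bacterial S18, of which Mrps18a sits in the large subunit and Mrps18b and Mrps18c in the small one, were all called lower. Mrps18a was at -0.65 ± 0.13 (adjusted p = 0.00126 by limma) and Mrps18c at -0.53 ± 0.10 (adjusted p = 0.000919), each below 0 on all 7 arrays; without replicates 5 to 7 they were at -0.30 and -0.28 and did not pass. Mrps18b was at -0.37 ± 0.09 (adjusted p = 0.00619) and about as low without replicates 5 to 7, at -0.37 ± 0.13 (adjusted p = 0.116), where it no longer passed. The Mrps18b value depended on the rows averaged: the 2 rows kept were at -0.61 and -0.13, and a row with fewer values turned the mean to 0.23 when it was let in. With the 2 turned columns as deposited Mrps18b was at -0.27 and did not pass. Mrps36, the gene that is no subunit, was lower at -0.34 ± 0.10 (adjusted p = 0.0112), a call lost without replicate 4 (-0.24).

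A pair of large subunit genes stood at the other end of the family, and they are named here after their values were seen. Mrpl34 was at 0.82, 0.41 and 1.27 on replicates 5, 6 and 7, and at 0.06, 0.08, 0.36 and -0.53 on replicates 1, 2, 3 and 4. Mrpl51 was at 0.65, 0.12 and 0.90 on replicates 5, 6 and 7, and at 0.06, -0.00, 0.05 and -0.25 on replicates 1, 2, 3 and 4. Both were higher on every array of replicates 5 to 7 than on any of replicates 1 to 4, and both were lowest on replicate 4. The first was so for 6 of the 78 members, and of these Mrpl36 and Mrps16 were also lowest on replicate 4. The share of all genes with that order was not counted, so the 6 cannot be set against it. Neither passed in the fit over all arrays, where Mrpl34 had the highest ratio of the family at 0.32. With values on all arrays required of every gene, Mrpl34 passed at the same ratio.

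**Figure D4:**
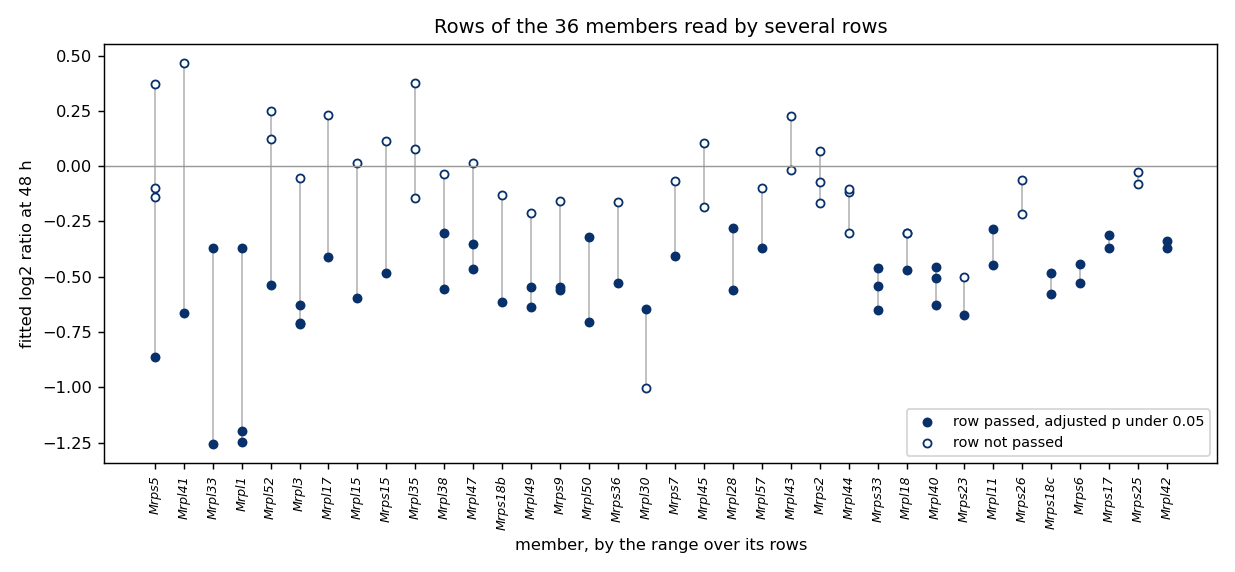
Fitted log2 ratio at 48 h of each row of the 36 members that several rows read, ordered by the range over rows, with filled points for rows that passed. Rows of Mrps5 span -0.86 to 0.37 and those of Mrpl41 -0.67 to 0.47, while the rows of Mrpl42 lie at -0.37 and -0.34.

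A single row reads 42 of the members and several rows read 36. Fitted row by row, 81 of the 130 rows were lower at 48 h (13.2% of all 28799 rows were) and 0 higher, and 60 of the 78 genes had at least 1 lower row. Of the 36 genes with several rows, 11 had all rows lower, 18 had some and 7 had none. In 11 of the 36 the rows of a gene differed by more than 0.5. Mrps5 was the widest, with 4 rows between -0.86 and 0.37 of which 1 was lower, followed by Mrpl41, with rows at -0.67 and 0.47. In Mrpl1 all 3 rows were lower, but 1 at -0.37 and the others at -1.20 and -1.25. Which transcript or stretch of a transcript each row reads was not given in the sources used here. The mean over rows can hide a difference between transcripts of a gene. RefSeq lists pseudogenes of 4 members, Mrpl23, Mrpl27, Mrpl48 and Mrps36, whose transcripts a probe could also bind.

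Between times, the ratio at 48 h was lower than that at 12 h in 27 members and higher in 0 (4.9% of all genes were called lower and 4.26% higher, 9.17% in all). It was lower than that at 24 h in 11 members and higher in 0 (0.985% and 1.07% of all genes, 2.05% in all). Each time has its own empty vector RNA, so either RNA can move a difference. Mrps10, Mrpl1 and Mrpl58 had the smallest adjusted p between 48 h and 12 h among the named members, at differences of -0.71 ± 0.13 (adjusted p = 0.00346 by limma), -0.93 ± 0.18 (adjusted p = 0.00451) and -0.69 ± 0.13 (adjusted p = 0.00506). Between 48 h and 24 h Mrpl1 differed by -0.89 ± 0.17 (adjusted p = 0.0295) and Mrpl46 by -1.03 ± 0.25 (adjusted p = 0.0472). Without replicates 5 to 7, 4 members differed between 48 h and 12 h (1.2% of all genes were called lower). Between 48 h and 24 h 0 did then (0.0469% of all genes were called), with 19 at an unadjusted p under 0.05 and a smallest adjusted p of 0.206. The 11 calls between 48 h and 24 h lay close to the threshold, and leaving out any single array of 12 h or 24 h took them to 1 or 0, as did leaving out 48 h replicate 4, 5, 6 or 7, while leaving out 48 h replicate 1, 2 or 3 gave 22, 26 or 30. The calls over all genes moved with them, to 8.97%, 10.5% and 12.3% without 48 h replicate 1, 2 or 3, against 2.05% over all arrays, and to between 9 and 83 genes in all where members fell to 1 or 0.

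A further 4 genes encode subunits of this ribosome under other symbols. Ptcd3, a pentatricopeptide repeat protein of the small subunit, was lower at -0.44 ± 0.11 (adjusted p = 0.00504 by limma), Chchd1 of the small subunit at -0.59 ± 0.14 (adjusted p = 0.00439) and Gadd45gip1 of the large subunit at -0.38 ± 0.08 (adjusted p = 0.00225). Dap3, the GTP-binding protein of the small subunit also known from cell death, did not pass at 0.20 ± 0.11 (adjusted p = 0.185). Dap3 stood at 0.37, 0.38 and 0.82 on replicates 5, 6 and 7, and at -0.27, 0.02, 0.20 and -0.10 on replicates 1, 2, 3 and 4. Without replicates 5 to 7 none of the 4 passed, with 2 at an unadjusted p under 0.05.

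**Figure D5:**
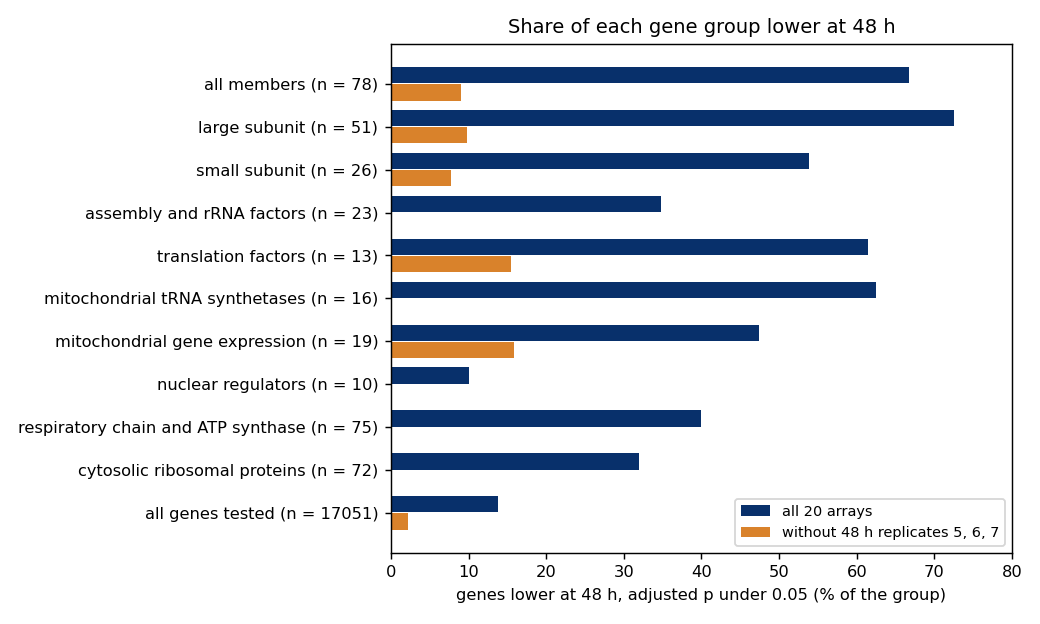
Percent of the genes in each group that were lower at 48 h with an adjusted p under 0.05, in the fit over all 20 arrays and in the fit without 48 h replicates 5, 6 and 7. The 78 members stand at 66.7% and 8.97%, respiratory chain and ATP synthase genes at 40% and 0%, cytosolic ribosomal protein genes at 31.9% and 0%, and all genes tested at 13.8% and 2.18%. Translation factors stand at 61.5% and 15.4%, and mitochondrial gene expression at 47.4% and 15.8%. Assembly factors, tRNA synthetases and nuclear regulators stand at 0% without the 3 arrays.

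Beside the ribosome itself, the lists of genes that build and serve it held more lower than higher calls at 48 h. For these and the lists below, 13.8% of all genes were called lower and 14% higher in the fit over all 20 arrays. Of 23 assembly and ribosomal RNA factors 8 were lower and 1 higher (median -0.20), and without replicates 5 to 7 none passed by limma (median -0.08, 5 at an unadjusted p under 0.05, smallest adjusted p = 0.0564). The RNA-binding protein gene Fastkd2 (-0.97 ± 0.17, adjusted p = 0.000565 by limma) and the ribosomal RNA methyltransferase genes Mrm3 (-0.69 ± 0.12, adjusted p = 0.000474) and Mrm2 (-0.69 ± 0.14, adjusted p = 0.00178) were lower. The RNA helicase gene Dhx30 was higher at 1.11 ± 0.21 (adjusted p = 0.00109), with 2.32, 1.90 and 2.30 on replicates 5, 6 and 7, and 0.37, 0.06, 0.38 and 0.71 on replicates 1, 2, 3 and 4; without replicates 5 to 7 it was at 0.38 ± 0.11 (adjusted p = 0.0678). Of 13 translation factors 8 were lower and 1 higher (median -0.35). Mtrf1 of the release factor family (-0.82 ± 0.11, adjusted p = 6.76e-05) and the initiation factor gene Mtif3 (-0.77 ± 0.12, adjusted p = 0.000198) were the 2 that stayed lower without replicates 5 to 7, at -0.58 and -0.50. Taco1, a translational activator, was lower at -0.60 ± 0.12 (adjusted p = 0.00159), and the elongation factor gene Tufm was higher at 0.70 ± 0.15 (adjusted p = 0.00231).

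Of 16 mitochondrial aminoacyl-tRNA synthetase genes 10 were lower and 2 higher at 48 h (median -0.34), and none passed without replicates 5 to 7, where 2 had an unadjusted p under 0.05 in limma's test. The leucyl enzyme gene Lars2 (-0.76 ± 0.27, adjusted p = 0.0445 by limma) and the phenylalanyl enzyme gene Fars2 (-0.73 ± 0.22, adjusted p = 0.019) lost their calls without any single one of replicates 5, 6 and 7. Lars2 also lost it without 48 h replicate 2, without 12 h replicates 2, 5 or 6 and without 24 h replicates 1, 2, 4, 6 or 7, each taken singly. The histidyl enzyme gene Hars2 (-0.68 ± 0.19, adjusted p = 0.0107) lost its call without replicate 6 (-0.46). Higher were the alanyl enzyme gene Aars2 (0.40 ± 0.10, adjusted p = 0.0061) and the valyl enzyme gene Vars2 (0.25 ± 0.08, adjusted p = 0.0293), and the Vars2 call was lost without replicate 4, 5, 6 or 7.

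Of 19 further genes of mitochondrial gene expression 9 were lower and 2 higher at 48 h (median -0.23). Pnpt1, an exoribonuclease gene, was the only listed neighbour that had passed earlier, at -0.82 ± 0.15 at 24 h (adjusted p = 0.00306 by limma), and was at -1.24 ± 0.15 at 48 h (adjusted p = 1.89e-05) and at -0.85 ± 0.15 (adjusted p = 0.00367) without replicates 5 to 7. The transcription elongation factor gene Tefm (-1.14 ± 0.20, adjusted p = 0.000659) kept its call without them, at -0.50 ± 0.13 (adjusted p = 0.0404), while Hsd17b10, a subunit of the enzyme that frees tRNAs at one end, was lower at -0.62 ± 0.12 (adjusted p = 0.00128) and lost it. The RNA polymerase gene Polrmt was higher at 0.97 ± 0.21 (adjusted p = 0.00206), but was at 0.37 ± 0.17 (adjusted p = 0.253) without replicates 5 to 7. Also higher was Elac2, which trims tRNAs at the other end, at 0.38 ± 0.10 (adjusted p = 0.0101), a call lost without replicate 6, and at 0.08 ± 0.08 (adjusted p = 0.613) without replicates 5 to 7.

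Of 10 genes for nuclear regulators of these genes 4 were higher and 1 lower at 48 h (median 0.11). Gabpa, the DNA-binding subunit of the factor whose letters are marked above, was higher at 0.53 ± 0.12 (adjusted p = 0.00293 by limma), and its partner Gabpb1 lower at -0.37 ± 0.10 (adjusted p = 0.0107). The coactivator gene Pprc1 was higher at 0.50 ± 0.14 (adjusted p = 0.0102) and Myc at 0.39 ± 0.14 (adjusted p = 0.0379); the Myc call was lost without replicate 5, 6 or 7. With the arrays scaled to 1 spread, Gabpb1 (-0.31), Pprc1 (0.30) and Myc (0.21), and the synthetase genes Lars2 (-0.48) and Vars2 (0.14), did not pass. With array weights Myc (0.32), Lars2 (-0.69), Vars2 (0.23) and Fars2 (-0.63) did not pass, and with the 2 turned columns as deposited Vars2 (0.24) did not. None of the 10 passed without replicates 5 to 7, where 1 had an unadjusted p under 0.05.

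Set beside the 78 members, of which 66.7% were lower, 30 of 75 respiratory chain and ATP synthase genes were lower and 2 higher at 48 h, with a median of -0.22. Of 72 cytosolic ribosomal protein genes 23 were lower and 4 higher, with a median of -0.13. Without replicates 5 to 7 both of these groups had 0 genes called in either direction by limma and medians of -0.10, with 16 respiratory chain and 13 cytosolic genes at an unadjusted p under 0.05. Translation factors then kept 2 of 13 lower genes (15.4%) and the further genes of mitochondrial gene expression 3 of 19 (15.8%). The members kept 8.97% and all genes 2.18%, while assembly factors, tRNA synthetases and nuclear regulators kept 0. Differences between any of these groups and the 7 lower members were not tested.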

How the data were processed

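Two-colour Agilent arrays measured MLE12 RNA. The authors deposited a table of 45220 rows by 20 columns. The deposited values were taken as log2 ratios from their range and sign. Limma was used upstream, per the submitters' processing notes; its version, the background correction and the normalisation were not given in the sources used here. Signal over background, which single-channel intensities would give, was not analysed here, and the number of arrays limits the precision. Rows were named from the platform annotation: 33653 had 1 symbol, 56 several and 11511 were not listed. Rows of 1 gene correlated at a median of 0.175 across arrays (0.288 for members), against 0 for rows of different genes.

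The columns of 12 h replicate 3 and 48 h replicate 3 were multiplied by -1. A gene was the mean of its rows with at least 4 values at each time. Ratios were fitted in R 4.3.3 with limma 3.58.1, with 3 time coefficients and a dye term sharing 1 variance per gene, two-sided moderated tests and Benjamini-Hochberg adjustment over 17051 genes, at 0.05. On simulated data for 48 h, 84% of genes changed by an absolute log2 of 1 and 32.5% of those changed by 0.5 were recovered, with 5.62% and 7.14% of calls false. Whether these shares hold for the measured 48 h calls, where some arrays spread more widely than others, was not tested.

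Members and lists were chosen with earlier results of these data known. Named members were those with the 5 largest called ratios or differences, the 5 largest called also without 48 h replicates 5 to 7, and members chosen for their role; neighbours were the 3 largest called per direction and list. Alternatives covered the samples, turned columns, dye, replicate number, rows, filters, scaling, weights, the variance prior and each array left out. Of 19 same-numbered pairs of arrays from different times, 1 correlated above 0.1. An effect shared by both RNAs of an array cancels in its ratio, so this check cannot show that the samples were unpaired.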

Additional observations from a re-analysis of the deposited data

Results flagged for a closer look

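Of 96 sets of 12, 24 or 48 h values examined for named members and subunits, 4 had 1 array far from the others, all at 12 h, and chance gives about 1 in 20. After the dye effect was taken off, Mrps12 stood at 0.33 on replicate 2, with the others between -0.13 and 0.03. Mrps18b was at 0.54 on replicate 1, with the others between -0.11 and 0.10, and Mrps36 at 0.45 on the same array, with the others between -0.07 and 0.06. Ptcd3 was at 0.47 on replicate 2, with the others between -0.21 and 0.04.

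The following genes had a different ratio at 48 h than at an earlier time by the test of the difference itself (limma, adjusted p under 0.05). Against 24 h the differences in log2 ratio were -1.03 for Mrpl46, -0.89 for Mrpl1, -0.72 for Mrpl32, -0.69 for Mrpl24, -0.67 for Mrpl13, -0.56 for Mrps14, -0.55 for Mrps10 and -0.54 for Mrpl58. Against 12 h they were -1.10 for Mrpl46, -1.01 for Mrpl21, -0.98 for Mrpl48, -0.93 for Mrpl1, -0.84 for Mrpl24, -0.73 for Mrps18a, -0.72 for Mrpl32, -0.71 for Mrps10, -0.69 for Mrpl58, -0.64 for Mrpl13, -0.64 for Mrps14, -0.57 for Mrpl12, -0.55 for Mrps18c, -0.50 for Mrps30, -0.46 for Mrps18b and -0.39 for Gadd45gip1. All were lower at 48 h.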

How the results depend on the processing

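At 48 h, 52 members were lower, and 43 to 60 were called under other processing of all arrays (60 per row, where any row of a gene counted; 1 of the 56 with values on all arrays required, Mrpl34, was higher); with the arrays scaled the 43 were all among the 52 and the median was -0.27 in place of -0.42. The count was 7 without 48 h replicates 5 to 7, 0 with each time fitted alone, and 0 with replicates 1 to 4 fitted alone (3 at an unadjusted p under 0.05 in limma, where 0 of all 17051 genes were called), an alternative chosen after seeing the data. Leaving out 1 array gave 37 to 55, the 37 without 48 h replicate 6. Medians over these single omissions were 0.02 to 0.04 at 12 h, -0.04 to -0.01 at 24 h and -0.52 to -0.36 at 48 h, and counts stayed 0 at 12 h, at 24 h and between them under each alternative. Between 48 h and 24 h the 11 calls became 0 with the turned columns as deposited, 27 with them left out, 2 with no dye term, 0 per row, 22 with values on all arrays, 3 with values on 2 or more arrays, 6 with arrays scaled, 1 with a trended robust prior, 0 without replicates 5 to 7 and 0 to 30 with 1 array left out. Between 48 h and 12 h the 27 became 8 with the turned columns as deposited, 4 without replicates 5 to 7 and 9 to 37 with 1 array left out. With the replicate number as a block, the counts were 50 at 48 h, 0 between 48 h and 24 h and 5 between 48 h and 12 h. Whether the replicate numbers mark paired samples could not be settled. Mrps18b alone reversed, at 0.23 with values on 2 or more arrays. The causes were not tested.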
